A study of Mus musculus with 3 samples.

Results

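The ADAMTS genes of the mouse extracellular matrix (ECM) list are *Adamts1*, *Adamts2*, *Adamts5*, and *Adamts8*, and they make up 4 of its 84 genes. They are taken by name, and the rule uses no measured value. H3K27ac, the acetylation of histone H3 that marks promoters and enhancers in use, was profiled by ChIP-seq in tibialis anterior (TA) muscle of C57/BL6 mice at 2, 10, and 20 months of age, with antibody ab4729 and 1 library per age. The ages are those of the sample titles, and the animal methods of the paper give the middle age as a range that starts at 10 months. The mice are named by strain and age alone, no treatment or allele is given, and how many animals went into a library is not given in the sources used here. The tissue label reads TA muscle, while the extraction text of the same samples speaks of activated SCs (satellite cells) and of RNA. Of a short list of myofiber genes, only *Lama2* and *Sgce* have a position in the ECM list, so the muscle label could not be checked against its defining markers. Both lacked a distal peak at 2 months and had at least 1 at 10 and at 20 months, a pattern of 17.9% of the ECM list. A whole muscle holds myofibers, fibroblasts, endothelial cells, and leukocytes, and fewer cells of a type and less H3K27ac per cell cannot be told apart.

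ADAMTS proteins are secreted metalloproteinases with thrombospondin repeats that cut components of the extracellular matrix. ADAMTS1 and ADAMTS5 cleave the large proteoglycans aggrecan and versican, ADAMTS2 removes the amino-terminal propeptide from fibrillar procollagens so that fibrils can form, and ADAMTS8 is known for slowing blood vessel growth in assays. Versican is part of the provisional matrix around muscle progenitors and regenerating fibers, and TIMP3 is the main inhibitor of the ADAMTS proteases that cut proteoglycans.

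The deposited data are 1 peak list per library, in mm9 coordinates. In that build *Adamts1* spans 85794073 to 85803358 on chromosome 16 (minus strand) and *Adamts5* spans 85858402 to 85901370 on the same chromosome and strand. *Adamts2* covers 205 kb of chromosome 11, 50415587 to 50621075 (plus strand), and *Adamts8* spans 30750147 to 30771423 on chromosome 9 (plus strand). A peak belongs to the nearest transcription start site (TSS) among the 84 ECM genes when its edge lies within 100 kb. Within 2.5 kb it is called a promoter peak, and beyond that a distal peak. Distances below are given from the TSS, with a minus sign for upstream.

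A promoter sequence was matched for 2 of the 4 genes, and this pair also shows the contrast between a TSS flanked by H3K27ac peaks (*Adamts1*) and one with no peak at any age (*Adamts2*). The 250 bases before the start are those of RefSeq in GRCm38.p6, not of mm9, at chr16:85803114-85803363 (minus strand) for *Adamts1* and chr11:50601835-50602084 (plus strand) for *Adamts2*. Capitals mark every match on either strand to TATAAA (the core of the TATA box), CCAAT (the CCAAT box), GGGCGG (the core of the GC box), TGACTCA (an AP-1 motif), and CANNTG (the E-box, which myogenic factors can bind).
*Adamts1*: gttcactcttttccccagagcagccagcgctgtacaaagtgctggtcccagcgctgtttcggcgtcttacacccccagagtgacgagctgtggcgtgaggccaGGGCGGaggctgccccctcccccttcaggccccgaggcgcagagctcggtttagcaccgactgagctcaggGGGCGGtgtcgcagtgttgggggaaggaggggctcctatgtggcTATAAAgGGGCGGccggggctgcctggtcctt
*Adamts2*: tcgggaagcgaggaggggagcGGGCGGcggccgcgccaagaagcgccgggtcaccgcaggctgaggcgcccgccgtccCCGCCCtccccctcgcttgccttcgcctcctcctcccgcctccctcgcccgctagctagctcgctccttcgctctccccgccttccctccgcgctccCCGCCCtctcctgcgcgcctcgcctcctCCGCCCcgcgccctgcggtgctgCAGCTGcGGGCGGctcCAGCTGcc

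*Adamts1* held TATAAA 32 bases before its start, a motif found in 12.4% of the 32851 promoter windows of this length. It also held 3 matches to GGGCGG (32.7% of windows). *Adamts2* held no TATAAA, 5 matches to GGGCGG, and 2 to CANNTG (66.2% of windows). No matched bases overlap between motifs, and neither window held CCAAT (33.8% of windows) or the AP-1 motif (4.46%). The *Adamts2* window was 78% G and C with 34 CG dinucleotides, and the *Adamts1* window 65.6% with 15, against a median of 52.4% over all windows. A match describes the letters of the window and shows nothing of binding in these libraries.

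The 3 libraries differ in depth and in how their peaks were called. The 2-, 10-, and 20-month lists held 17884, 35221, and 44752 peaks from 15933343, 18888715, and 26302098 uniquely mapped reads. The authors' caller set the background at the genome mean for 78.3% of peaks in the youngest library, against 2.87% and 4.89% in the others. Above the mean, it was a whole number of reads per 10 kb for 100% of later peaks and 3.38% of 2-month peaks. The background rule of the 2-month list thus differed from that of the others, and neither folds nor p-values were set side by side across ages. Levels are given instead as the reads at each summit, recovered from the fold and the p-value, in multiples of mean genome coverage. The lowest summit in the list was 8, 10, and 10 reads, or 6.34, 4.46, and 3.99 times the mean. At the 10598 regions with a peak at every age and recovered summit reads (of 10599), the median ratio of summit coverage was 1.95 for 10 over 2 months (quartiles 1.48 and 2.47), with 93.5% of regions higher at 10 months. It was 2.08 for 20 over 2 months (quartiles 1.62 and 2.57), with 95.8% higher, and 1.06 for 20 over 10 months, with 63% higher. The last comparison turns with the scale, since with summit reads scaled to the uniquely mapped reads of each library (RPM) the median of 20 over 10 months was 0.851 and 19.0% of regions were higher at 20 months. Values at the ADAMTS genes are read against these medians. Since there are no replicates, age was not tested, and the exact 95% intervals below reflect counting error alone.

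The ADAMTS genes fell into pairs by where their H3K27ac peaks lay. *Adamts1* and *Adamts5*, neighbors on chromosome 16, had promoter peaks at every age and few distal ones. *Adamts2* and *Adamts8* lacked a promoter peak throughout, and they held 16 of the 17 distal peaks of the group at 10 months. A promoter peak was thus present at 2 of 4 ADAMTS genes at each age, against 26.2%, 35.7%, and 50% of the 84 ECM genes at 2, 10, and 20 months. Of the whole list, 25% of genes had a promoter peak at all ages and 50% had none, and 29.8% combined distal peaks at both later ages with no promoter peak, as *Adamts2* and *Adamts8* did.

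**Figure D1:**
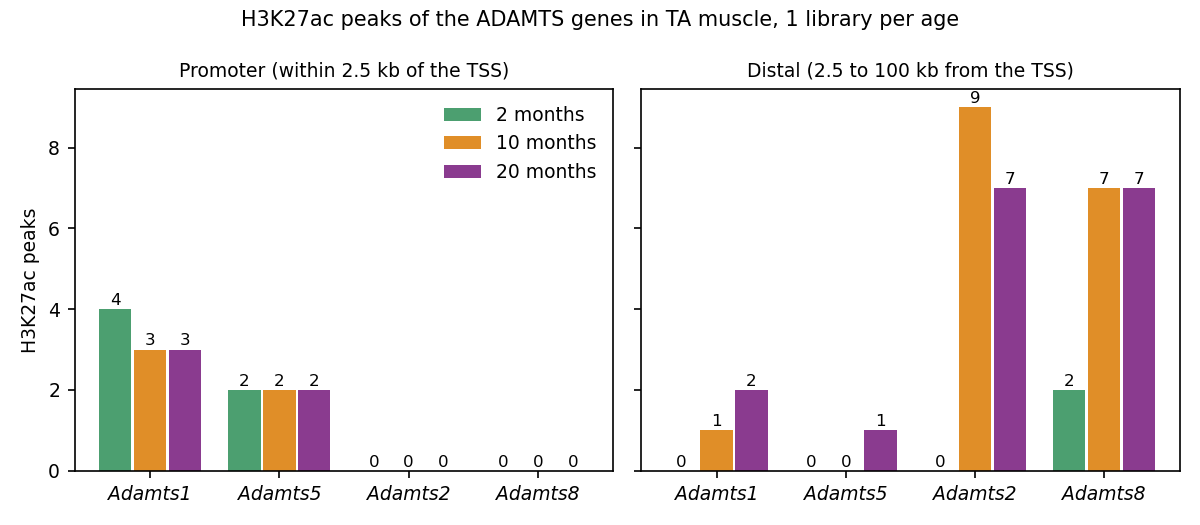
Number of H3K27ac peaks assigned to each ADAMTS gene (y axis) at 2, 10, and 20 months, within 2.5 kb of the TSS (left) and from there to 100 kb (right), with 1 library per age. Promoter peaks are confined to *Adamts1* and *Adamts5*, and *Adamts2* has 0, 9, and 7 distal peaks in order of age.

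Distal peaks of the group numbered 2, 17, and 17 at 2, 10, and 20 months, and 1, 3, and 4 of the 4 genes had at least 1. Of all 84 ECM genes, 48.8%, 67.9%, and 75% had a distal peak at these ages. The ADAMTS genes held 1.03%, 4.89%, and 3.71% of the 194, 348, and 458 distal peaks of the whole list. All 4 had more distal peaks at 20 than at 2 months, as did 67.9% of the list, and 3 of 4 had more at 10 than at 2 months, as did 57.1%. The median gene of the list had 0, 2.5, and 3 distal peaks. Both *Adamts1* and *Adamts2* lacked distal peaks in the youngest library and had them in each older one, a pattern that 17.9% of the list shared. No ADAMTS gene had fewer at 20 than at 2 months (2.38% of the list). From 10 to 20 months, *Adamts1* and *Adamts5* had more (56% of the list) and *Adamts2* had fewer (8.33%). These counts are no result particular to the family. In lists of the same length, the 17884 peaks with the smallest q at each age, the ADAMTS genes had 2, 5, and 3 distal peaks. There, *Adamts2* alone had more at 20 than at 2 months (1 and 0). The ranking by q rests on backgrounds set by unlike rules at 2 months and later, so these lists do not make the ages alike.

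Both distal peaks of the group at 2 months belonged to *Adamts8* and lay about as far from its TSS as the start of a neighboring gene does. They lay in the regions at 87.3 and 88.4 kb, toward the next protein-coding gene downstream, *Zbtb44*, which encodes a zinc finger protein and is not in the ECM list. In GRCm38.p6 the start of *Zbtb44* lies 88.1 kb from that of *Adamts8*. That distance is from another build than the peaks and was not converted, so whether the pair flanks the *Zbtb44* start in mm9 was not tested. Without this pair, the group had 0, 15, and 15 distal peaks at 2, 10, and 20 months, and 0, 3, and 4 genes with one.

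**Figure D2:**
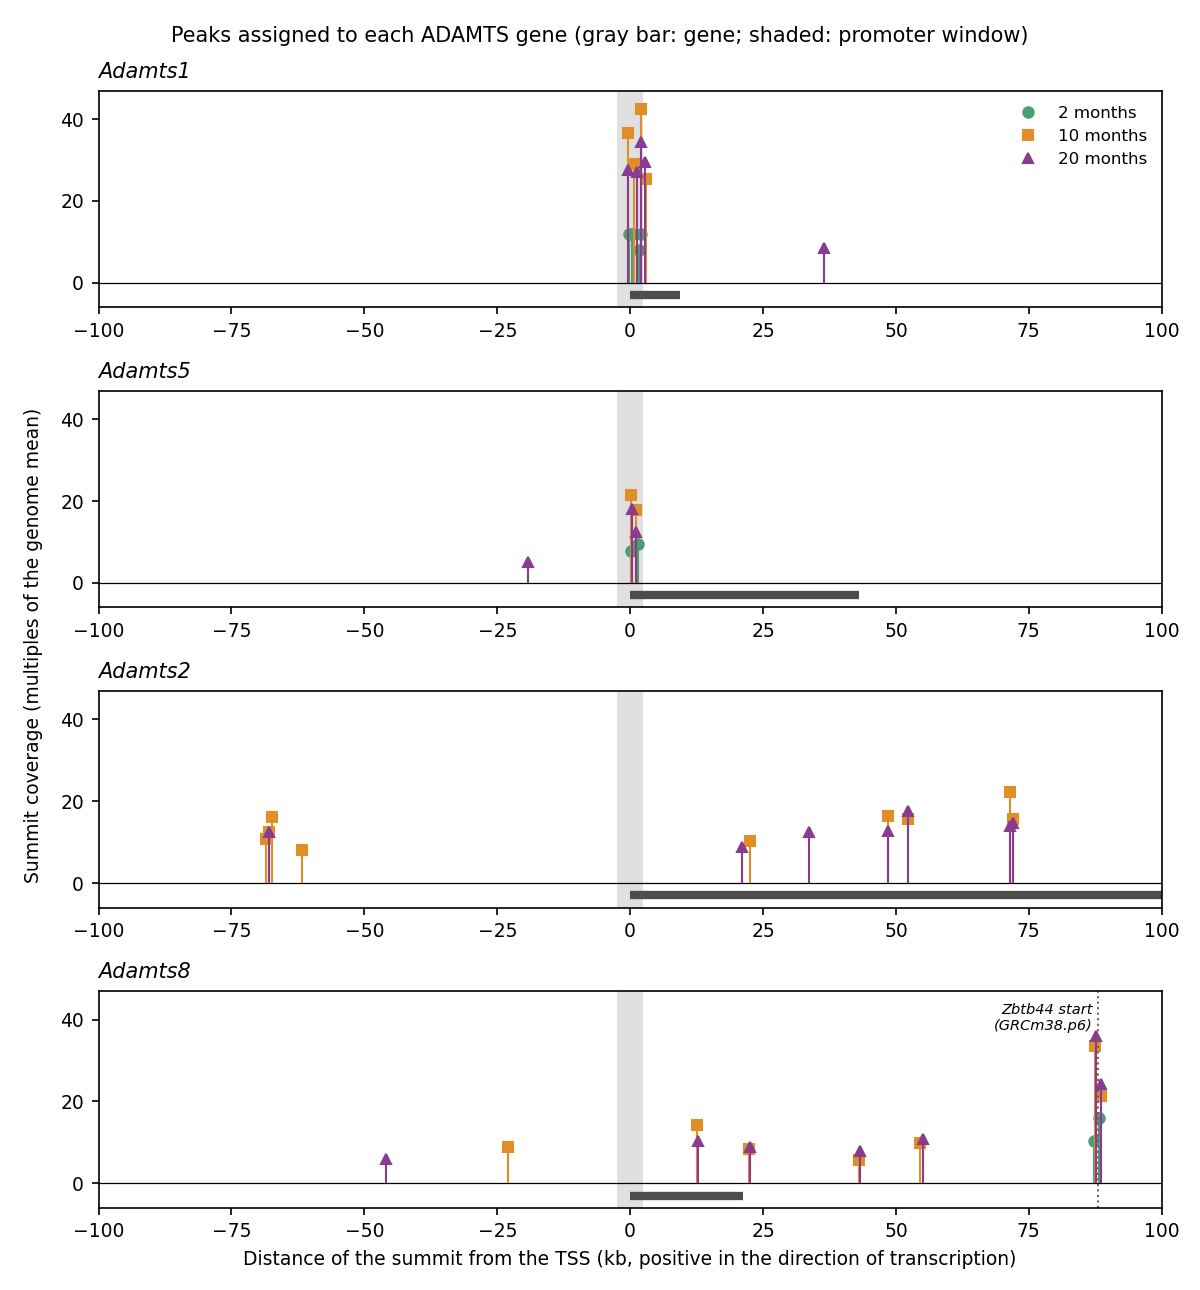
Summit coverage of every peak assigned to the 4 genes, in multiples of the genome mean (y axis), against the distance of the summit from the TSS in kb (x axis, positive in the direction of transcription) at 2, 10, and 20 months. Summits of *Adamts1* and *Adamts5* crowd around the TSS, those of *Adamts2* and *Adamts8* leave it empty, and the *Adamts8* summits at 2 months sit beside the dotted line, the distance of the *Zbtb44* start in GRCm38.p6.

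*Adamts1*, which encodes a proteoglycan-cleaving protease, had the highest promoter summits of the group. At its promoter, 4 separate peaks at 2 months had summits of 15, 10, 15, and 15 reads, or 11.9 times the genome mean at the highest. At 10 months 3 peaks had 95, 65, and 82 reads, or 42.4, 29.0, and 36.6 times the mean. At 20 months 3 peaks had 86, 68, and 69 reads, or 34.4, 27.2, and 27.6 times the mean. Every summit at 10 and 20 months was thus higher than any at 2 months. Among ECM genes with a promoter peak, the highest *Adamts1* summit ranked 14 of 22, 1 of 30, and 2 of 42 in order of age.

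The summits fell at like places at all ages. Among promoter peaks, the summit farthest into the gene was at 2.02 kb at 2 months, 2.03 kb at 10 months, and 2.04 kb at 20 months. Upstream, the single summit was at -0.24, -0.40, and -0.37 kb, so the TSS itself lay between flanking peaks. The downstream peaks merged into a region of 85801193 to 85803049, where coverage at 10 months was 3.56 times that at 2 months (95% interval 2.05 to 6.61). This interval lies above the median of shared regions, 1.95, by a small margin. When the summits of all peaks in the region were summed instead (3 peaks at 2 months and 2 at 10 months), the ratio was 2.25 (1.58 to 3.27), an interval that includes 1.95. The same region gave a ratio of 2.89 (1.66 to 5.38) for 20 over 2 months, an interval that includes the median of 2.08. The upstream region, 85803472 to 85803888, gave 3.07 (1.76 to 5.74) for 10 over 2 months and 2.32 (1.31 to 4.36) for 20 over 2 months, and both intervals include the medians. Between the later ages, 20 over 10 months, the downstream and upstream ratios were 0.81 (0.60 to 1.10) and 0.75 (0.54 to 1.05), and both intervals include 1. Against the median of shared regions, 1.06, the downstream interval includes it and the upstream interval lies just below it. In RPM the ratios were 0.65 (0.48 to 0.88) and 0.60 (0.43 to 0.84), and again only the upstream interval lies below the median of that scale, 0.851.

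**Figure D3:**
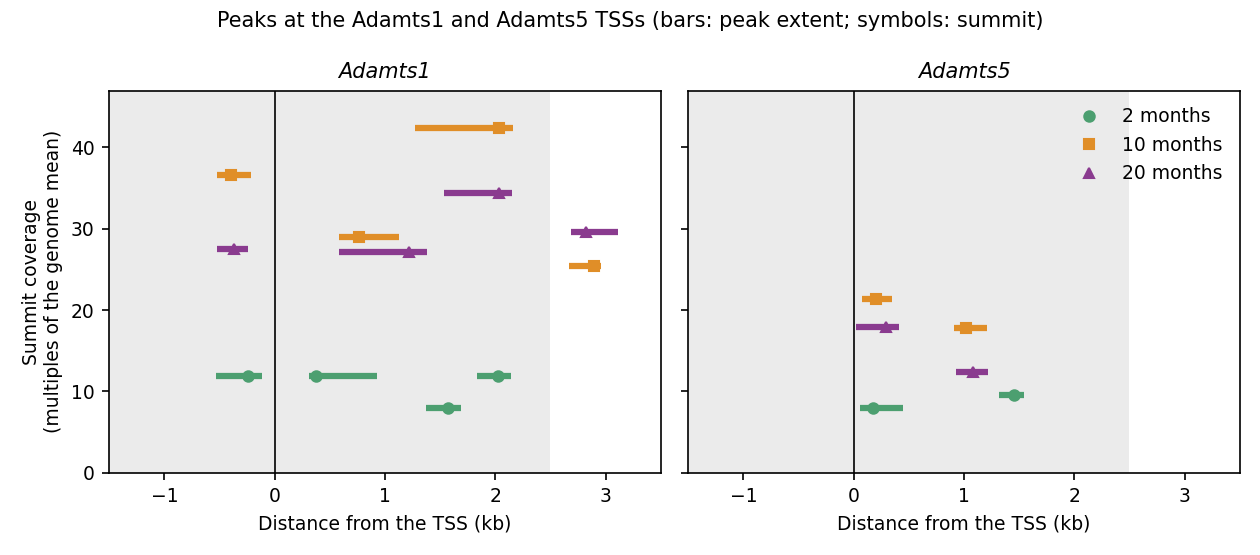
Peaks at the TSSs of *Adamts1* and *Adamts5*, with the extent of each peak as a bar and its summit as a symbol, as summit coverage in multiples of the genome mean (y axis) against the distance from the TSS in kb (x axis). Peaks at 10 and 20 months lie above those at 2 months at both genes, and the *Adamts1* peaks starting at 2.67 and 2.69 kb fall just outside the shaded promoter window.

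The distal peak of *Adamts1* at 10 months, and the nearer of 2 at 20 months, lay just beyond the 2.5 kb limit, with edges at 2.67 and 2.69 kb. They had 57 reads at 10 months and 74 reads at 20 months, 25.4 and 29.6 times the mean, and no peak was called there at 2 months. With an inner limit of 5 kb the gene had 0, 0, and 1 distal peaks at 2, 10, and 20 months. The remaining one, at 36.5 kb and beyond the end of the gene, was found at 20 months only, with 21 reads (8.39 times the mean).

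*Adamts1* also shows how far a deposited fold can lie from the level of a peak. At 10 months its highest promoter summit stood at the 99.2nd percentile of all summits in that list, but its fold, 3.33, stood at the 25.1st percentile of folds. The peak at 2.67 kb was at the 84.6th percentile by summit and the 0.327th by fold, 2.05. The background set for these peaks was 12.1 to 12.6 times the genome mean at 10 months and 11.2 to 11.5 times at 20 months. Within each of these lists, the highest ranked 1 of 30 and 1 of 42 among ECM genes with a promoter peak. At 2 months the background of all 4 *Adamts1* promoter peaks was the genome mean itself, as for 78.3% of peaks in that list. Since the background rule of that list differed from that of the later ones, these values do not show a change with age.

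*Adamts5*, the major aggrecan-cleaving protease of mouse cartilage, had a lower highest promoter summit than its neighbor at each age. Its summits had 12 and 10 reads at 2 months, 40 and 48 reads at 10 months, and 31 and 45 reads at 20 months. As multiples of the mean, the highest summit was 9.52, 21.4, and 17.97 at the 3 ages, and it ranked 18 of 22, 12 of 30, and 16 of 42 ECM genes. Every later summit was again above both at 2 months.

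One *Adamts5* region, 85900926 to 85901349, which starts 0.02 kb inside the gene, had a peak at every age. Its coverage at 10 months was 2.70 times that at 2 months (1.35 to 5.98), and at 20 months 2.27 times (1.13 to 5.04), and both intervals include the medians of all shared regions. The ratio of 20 over 10 months was 0.84 (0.55 to 1.29). Within the gene, peaks at 1.02 kb at 10 months and 1.08 kb at 20 months did not overlap the one at 1.46 kb at 2 months. The single distal peak, at -19.2 kb, was called at 20 months only. It had 13 reads, or 5.19 times the mean, which is less than the lowest summit of the 2-month list. Whether a region of that height was present at 2 months cannot be told.

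The TSSs of *Adamts1* and *Adamts5* are 98.0 kb apart, and between their promoter windows 0 peaks were called at any age. This stretch holds the 55.0 kb between the genes and the whole body of *Adamts5* beyond its promoter window.

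*Adamts2*, the procollagen amino-propeptidase, had 0, 9, and 7 distal peaks at 2, 10, and 20 months and none at its TSS. The counts were 0, 2, and 1 in lists of equal length, 0, 2, and 2 with the stricter 50% of each list by q, 0, 2, and 3 within 50 kb, and 1, 19, and 20 within 200 kb. The peaks within 100 kb merged into 11 regions, of which 5 had a peak at both later ages, 4 at 10 months only, and 2 at 20 months only. Of all 52684 regions in the lists, 33.8%, 10.4%, and 24.6% had these patterns. Of the 11 *Adamts2* regions, a group of 4 lay upstream at -68.5 to -61.6 kb. The other 7 lay inside the gene from 21.0 to 72.1 kb. The 10-month summits ranged from 18 to 50 reads (8.03 to 22.3 times the mean, median 15.6), and the 20-month summits from 22 to 44 reads (8.79 to 17.6 times, median 12.8). None stood among the highest of the list, since the highest *Adamts2* summit ranked 36 of 57 ECM genes with a distal peak at 10 months and 39 of 63 at 20 months.

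Of the upstream group, 4 regions were called at 10 months and 1 at 20 months. At 10 months the peaks at -68.5, -67.9, -67.3, and -61.7 kb had 24, 28, 36, and 18 reads. At 20 months only the one at -67.9 kb was called, with 31 reads. Inside the gene, the regions at 48.5, 52.3, 71.5, and 72.1 kb were called at both later ages, with 37, 35, 50, and 35 reads at 10 months and 32, 44, 35, and 37 reads at 20 months. The ratio of 20 over 10 months was 0.63 (0.40 to 0.99) at 71.5 kb, and the intervals of the other 4 regions called at both ages included 1. The remaining positions inside the gene were 22.7 kb, with 23 reads at 10 months only, and 21.0 and 33.5 kb, with 22 and 31 reads at 20 months only.

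No *Adamts2* region was called at 2 months, and the reason was not tested. Divided by the median ratio of shared regions, 3 of the 9 regions at 10 months and 4 of the 7 at 20 months would lie under the lowest summit of the 2-month list. The other regions would lie above it. That floor is the lowest of 17884 summits, and the median ratio is from regions called at every age, so whether any region could have been called at 2 months was not tested.

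*Adamts8* had 2, 7, and 7 distal peaks at 2, 10, and 20 months in 9 regions. The counts were 2, 3, and 2 in lists of equal length, 1, 3, and 3 with the stricter 50%, and 0, 4, and 4 within 50 kb. The pair at 87.3 and 88.4 kb was called at every age, 3 regions at both later ages, and 2 each at 10 and at 20 months only. Of all 52684 regions in the lists, 20.1%, 33.8%, 10.4%, and 24.6% had these patterns. The highest distal summit of *Adamts8* ranked 11 of 41, 14 of 57, and 13 of 63 ECM genes with a distal peak at the 3 ages. It was part of the pair each time. Of the 9 *Adamts8* regions, only the one at 12.5 kb lies inside the gene, with 32 reads at 10 months and 26 reads at 20 months.

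The region at 87.3 kb had 13, 75, and 90 reads at 2, 10, and 20 months, or 10.3, 33.4, and 35.9 times the mean. Its ratio was 3.24 (1.79 to 6.37) for 10 over 2 months and 3.49 (1.94 to 6.80) for 20 over 2 months, and both intervals include the medians of shared regions. The region at 88.4 kb had 20, 48, and 61 reads, or 15.9, 21.4, and 24.4 times the mean. Its ratios, 1.35 (0.79 to 2.40) and 1.54 (0.91 to 2.69), have intervals that include both 1 and the medians of shared regions. In RPM the ratios were 2.02 (1.18 to 3.60) and 1.85 (1.10 to 3.23), and both intervals include the medians of that scale, 2.924 and 2.504. The region at 88.4 kb had the more reads at 2 months, and the one at 87.3 kb at 10 and 20 months. The order at 2 months rests on 20 against 13 reads and no interval was computed for it, so a reversal with age is not shown.

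**Figure D4:**
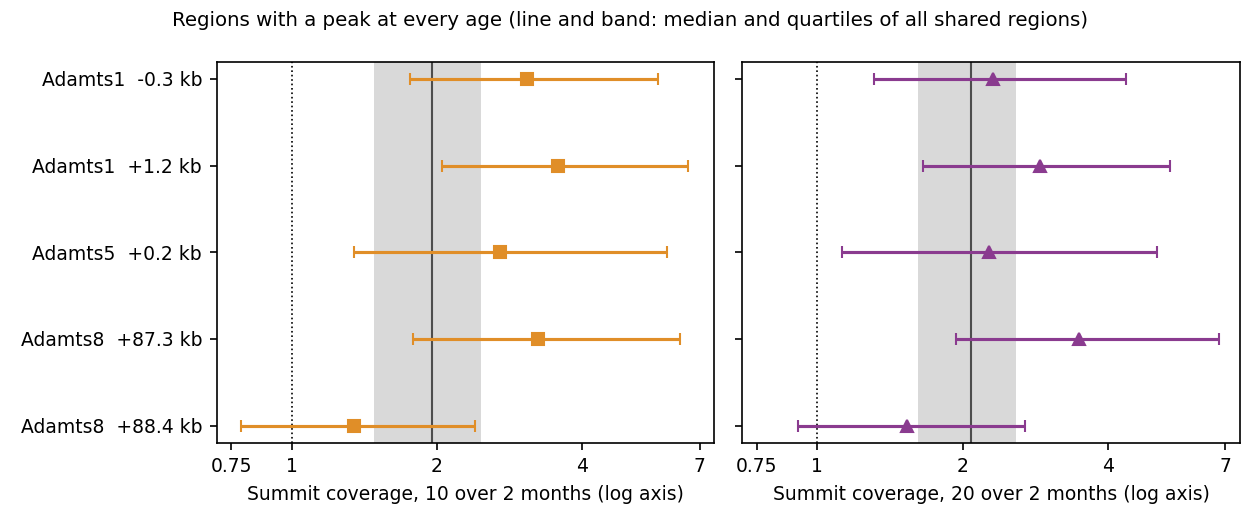
Ratio of summit coverage at 10 over 2 months (left) and 20 over 2 months (right) on log axes, for the 5 regions of the ADAMTS genes with a peak at every age, with exact 95% intervals for counting error. The line and band are the median and quartiles of all 10598 shared regions, 1.95 on the left and 2.08 on the right, and only the downstream *Adamts1* region at 10 months has an interval wholly above the line.

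The other *Adamts8* peaks were low. At 10 months those at 12.5, 22.4, 43.0, and 54.5 kb had 32, 19, 13, and 22 reads, and one at -22.9 kb had 20. At 20 months those at 12.7, 22.5, 43.2, and 55.1 kb had 26, 22, 20, and 27 reads, and one at -45.9 kb had 15. They ranged from 5.80 to 14.3 times the mean at 10 months and from 5.99 to 10.8 times at 20 months. Divided by the median ratio of shared regions, 4 of these 5 at 10 months and 5 of 5 at 20 months would lie under the lowest 2-month summit. The region at 12.5 kb at 10 months is the one that would lie above it. On the upstream side the next gene is *Adamts15*, a family member that is not in the ECM list. Whether the peaks at -22.9 and -45.9 kb lie nearer to its start was not tested.

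Beyond the 100 kb limit, peaks near the ADAMTS genes are assigned to none of them. *Adamts2* is 205 kb long, and inside it the regions at 116.7 and 167 kb had 29 and 17 reads at 10 months and 29 and 18 reads at 20 months, with one more at 115 kb at 20 months only. Upstream of *Adamts5*, regions at -110 and -144 kb had 43 and 58 reads at 10 months and 45 and 68 reads at 20 months. Neither had a peak at 2 months. Upstream of *Adamts2* a region at -171 kb was called at every age, with 19, 68, and 77 reads at 2, 10, and 20 months. In GRCm38.p6 the start of the upstream neighbor *Rufy1* lies at -171 kb.

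Inhibitors, substrates, and related proteases in the ECM list were counted in the same way. *Timp3* had 5, 4, and 9 distal peaks at 2, 10, and 20 months, and the 3 TIMP genes together had 16, 18, and 29. *Vcan*, which encodes versican, had 0 distal peaks at each age, and a promoter peak was absent at 2 months and present at 10 and 20 months. *Hapln1*, a link protein of such proteoglycans, also had no distal peak at any age. Among the 4 fibrillar procollagen genes that ADAMTS2 and its relatives process, distal peaks numbered 8, 15, and 26, with 6, 5, and 10 at *Col1a1* and 0, 0, and 1 at *Col3a1*. The 12 MMP genes, the other matrix metalloproteinases of the list, had 22, 41, and 53 distal peaks, and 7 of the 12 had more at 20 than at 2 months and 0 had fewer. The 3 thrombospondin genes had 14, 23, and 22, and *Fbln1*, encoding a cofactor of ADAMTS1, had 0, 0, and 2. For comparison, the 80 other ECM genes had 192, 331, and 441, and 53 of them had more at 20 than at 2 months.

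Marker genes of other cell types were counted as well. Of all 84 ECM genes, 48.8%, 67.9%, and 75% had a distal peak at 2, 10, and 20 months. The 4 leukocyte genes (*Itgal*, *Itgam*, *Itgax*, and *Itgb2*) had 30, 42, and 46 distal peaks at these ages. Of them, 3, 4, and 4 had at least 1, and *Itgal* alone held 16, 20, and 23. The 4 endothelial genes (*Pecam1*, *Sele*, *Selp*, and *Vcam1*) had 12, 11, and 15 distal peaks, at 2, 3, and 3 of them. *Pecam1* held 11, 9, and 11 of these. The 4 fibroblast genes (*Col1a1*, *Col3a1*, *Postn*, and *Fn1*) had 6, 7, and 13 distal peaks, at 1, 2, and 3 of them. *Col1a1* held 6, 5, and 10. Each total thus rests largely on few genes. The part of these cell types in the ADAMTS counts was not tested.

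The genes most like each ADAMTS gene in distal counts were found by the summed absolute difference over the 3 ages, among 60 genes with a distal peak at some age. *Mmp8*, *Sgce*, and *Vcam1* had the same counts as *Adamts1* (0, 1, and 2). *Itga5* was nearest to *Adamts2*, with 1, 8, and 8 distal peaks and a difference of 3. *Entpd1* followed at 5, and *Cdh1* was among 5 genes at 6. *Col3a1*, *Ctgf*, and *Lama3*, with 0, 0, and 1, were among 5 genes that matched *Adamts5*. *Col2a1*, *Entpd1*, and *Itga5* were among 4 genes at a difference of 3 from *Adamts8*. With few peaks per gene, such ties are common.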

How the data were processed

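H3K27ac ChIP-seq of TA muscle was available for 1 library each at 2, 10, and 20 months. According to the submitters' processing notes the authors used Bowtie2, with mm9 as the genome build, and MACS2 2.1.0 for the peaks. The methods name normal rabbit IgG as negative control of the ChIP assays, and whether a control library entered these peak calls is not given in the sources used here. The backgrounds given above show that the 2-month list was called with another background rule than the later lists. The deposited lists hold a score, a ratio (fold), −log10 p, −log10 q, and the summit offset of each peak, all computed by the authors. The score follows −log10 q and was not used. Library totals and the gene positions of the 84 ECM genes come with the study.

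Values were computed in Python 3.11.15 (scipy 1.17.1, with numpy 2.4.6 and pandas 2.3.3) and drawn with matplotlib 3.10.9. Whole summit reads were solved from the fold and −log10 p (tolerance 0.001), which was tested on simulated data, and failed for 1 peak each at 10 and 20 months. Mean coverage is uniquely mapped reads times the smallest peak width (148, 222, and 178 bp) over a genome size of 1870000000. RPM scales summit reads to the library's uniquely mapped reads. Regions are merged peaks that overlap or touch, with the level of the highest summit. Ratios have exact conditional binomial 95% intervals, and reads were not separated by molecular identifiers. Assignments equalled those of the study's gene sheet for 194, 348, and 458 peaks.

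The genes, lists, and rules were chosen with earlier results of these data known. Named genes are the 4 ADAMTS genes, the 3 most alike for each, *Timp3*, *Vcan*, *Col1a1*, and *Col3a1*, and members of short lists. *Zbtb44*, *Rufy1*, and *Adamts15* were named after the values were seen. Alternatives were other limits, stricter lists, merging, widths, scales, and overlap rules.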

Additional observations from a re-analysis of the deposited data

How the results depend on the processing

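No paired analysis was possible because each age has 1 library, so no replicate could be left out either. The ratios at the 5 regions called at every age stayed within their wide main intervals in RPM and with summed summits. An overlap of 50% left them unchanged. With 500 bp of extension neighboring regions merged, and the ratios of the merged regions also lay within those intervals. The *Adamts8* pair became a single region, with a ratio of 2.11 (1.27 to 3.65) for 10 and 2.27 (1.38 to 3.89) for 20 over 2 months. These set the 75 and 90 reads of the peak at 87.3 kb over the 20 reads of the 2-month peak at 88.4 kb. They are thus no values of the region at 88.4 kb alone. The *Adamts5* region merged with the other promoter peaks of that gene. Its 2-month level was then the 12 reads of the peak at 1.46 kb, and the interval for 20 over 2 months included 1 (0.98 to 3.92). Distal counts at 2, 10, and 20 months (2, 17, and 17) moved with the strictness of the lists and with the distance limits. When only peaks with the smallest q were used (50% of a list), they were 1, 5, and 6. In lists of equal length (17884 peaks by q) they were 2, 5, and 3, and 2 genes had a distal peak at 20 months. The higher count at 20 than at 2 months was thus 1 peak in equal lists. Both cuts are by q, which rests on backgrounds set by unlike rules at 2 months and later, so they do not make the ages alike. For example, the *Adamts1* peak at 2.69 kb at 20 months stood at the 92.2nd percentile by summit and the 56.5th by q. An outer limit of 50 kb gave 0, 7, and 10 peaks and 0 genes at 2 months, and one of 200 kb gave 30 and 33 peaks at 10 and 20 months and 2 genes at 2 months. With no inner limit, or with each peak counted for every gene, there were 8 peaks at 3 genes at 2 months, as promoter peaks of *Adamts1* and *Adamts5* then enter the count. A minimum width of 222 bp left 10 peaks at 20 months, and merging within 1 kb left 1 at 2 months. Of the alternatives added after seeing the data, summits of at least 1 RPM left 1 peak at 2 months and 10 at 20 months, and summits of at least 10 times the mean left 11 at 20 months. Without the pair at the distance of the *Zbtb44* start, 0 peaks and 0 genes remained at 2 months. Promoter peaks (6, 5, and 5) were 3, 3, and 2 among the 50% with the smallest q, 3 and 2 at 10 and 20 months in equal lists, and 3 at 2 months within 1 kb. The cause of these shifts was not tested. Each summit rests on few reads at 2 months (10 to 20), which sets the width of the intervals.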
